A study of Mus musculus with 6 samples.

Results

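The miR-302 and miR-290 to miR-295 clusters are the main microRNA clusters of mouse pluripotent cells, and 9 of their hairpin genes are described here out of 24288 gene symbols and 1181 microRNA symbols in the expression table. The hairpins were taken by symbol, with 1 table entry each, namely the entry with the highest total of reads. Mir302a, Mir302b, Mir302c, Mir302d and Mir367 make up the cluster on chromosome 3 called miR-302 here, and Mir291a, Mir293, Mir294 and Mir295 belong to the miR-290 to miR-295 cluster on chromosome 7. RNA sequencing compared wild-type (WT, n = 3) epiblast-like cells (EpiLCs) with EpiLCs that lack both Smad2 and Smad3 (DKO, n = 3), the Smad pair that carries Nodal and activin signals to the nucleus, after embryonic stem cells (ESCs) had left the naive state. WT cells were the CCE line, and DKO cells were a single clone, KT15.1F6, homozygous for the Smad2 tm1Rob allele and for a Cas9 nickase deletion around exon 1 of Smad3. Both lines had the strain background 129/Sv//Ev. Their ESCs were kept in N2B27 medium with LIF and inhibitors of Mek and Gsk3, and EpiLCs of both were made over 48 h on fibronectin with 20 ng/ml activin A and 12 ng/ml Fgf2. The 3 libraries of a genotype came from separate differentiations of 1 line, so genotype and line cannot be told apart.

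A microRNA gene is transcribed as a long primary transcript, from which Drosha and Dgcr8 cut a hairpin that Dicer1 trims to the mature microRNA. The mature strand guides Argonaute proteins to messenger RNAs that pair with its seed, bases 2 to 8, which lowers the stability and translation of those messengers. In the mouse the miR-290 cluster is known as the leading microRNA cluster of naive ESCs and the miR-302 cluster as one that comes on in the epiblast, and their shared seed is known for restraining inhibitors of the cell cycle. The libraries were made from rRNA-depleted total RNA by a protocol for long RNA, so reads over a hairpin come from its primary transcript and the levels of the mature microRNAs were not measured. In bulk samples, fewer cells that transcribe a cluster and less transcript per cell cannot be told apart.

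Mature 3p strands of 8 members, all but miR-302a-3p, are shown because the seed sets which messengers a member can pair with, and it differs within the clusters as well as between them. Sequences are those of RefSeq on GRCm38.p6 (mm10), and the table used here held at least 1 mature strand for 9 of the 9 members. Capitals mark the seed.
miR-302b-3p: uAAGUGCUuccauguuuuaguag
miR-302c-3p: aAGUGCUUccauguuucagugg
miR-302d-3p: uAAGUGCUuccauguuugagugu
miR-291a-3p: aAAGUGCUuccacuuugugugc
miR-294-3p: aAAGUGCUucccuuuugugugu
miR-295-3p: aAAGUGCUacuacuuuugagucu
miR-293-3p: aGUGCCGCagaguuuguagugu
miR-367-3p: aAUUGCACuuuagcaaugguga

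The seed AAGUGCU was carried by 5 of these 8 strands, 2 from chromosome 3 and 3 from chromosome 7. Among the 1738 mature entries of that RefSeq table, these were the 5 with this seed, and miR-302a-3p was not analysed here. MiR-302c-3p holds the same letters 1 base closer to its annotated 5′ end, so that its own seed reads AGUGCUU. MiR-293-3p was alone in the table with GUGCCGC, and miR-367-3p shared AUUGCAC with miR-25, miR-32, miR-363, miR-92a and miR-92b. The strands cut from the 5′ arm of the chromosome 3 hairpins are shown because their seeds differ from those of the 3p strands.
miR-302a-5p: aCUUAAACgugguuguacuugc
miR-302b-5p: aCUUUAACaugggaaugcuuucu
miR-302c-5p: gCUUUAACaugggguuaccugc
miR-302d-5p: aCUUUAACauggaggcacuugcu
miR-367-5p: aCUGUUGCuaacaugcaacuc

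The seed CUUUAAC was common to the 5p strands of Mir302b, Mir302c and Mir302d, that of miR-302a-5p read CUUAAAC, and that of miR-367-5p read CUGUUGC.

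Both clusters lie on the plus strand of mm10. The miR-302 hairpins, of 66 to 75 bp, run in the order Mir302b, Mir302c, Mir302a, Mir302d and Mir367 over 580 bp (chr3:127545228-127545807), with 43 to 65 bp between neighbours. They lie opposite an intron of Larp7, which is transcribed from the minus strand and encodes a protein that binds 7SK RNA. The miR-290 cluster spans 2216 bp (chr7:3218626-3220841), with gaps of 48 to 782 bp between its hairpins. Its listed members, of 69 to 84 bp, lie within the long noncoding RNA gene D7Ertd143e (chr7:3218784-3221015) and opposite an annotated exon of Nlrp12, a minus strand gene of the inflammasome family. A fragment longer than these gaps can count for several hairpins, and D7Ertd143e takes in the reads of the hairpins inside it, so entries of 1 cluster are not independent measurements.

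Depth was even over the libraries, from 57644143 to 63046034 reads over 1 entry per gene. Values are normalized reads, the deposited reads divided by 1 size factor per library of 1.76 to 1.93, so that 3 reads, taken here as the floor, equalled 1.56 to 1.71 normalized reads. Smad3 fell from 839 ± 37.0 (SD, n = 3) normalized reads in WT to 23.6 ± 6.16 without the Smads, and Smad2, whose tm1Rob allele need not remove reads over the gene body, stood at 4520 ± 86.3 and 5062 ± 109. All 6 EpiLC markers were above the floor, with a summed level of 105673 to 109456 in WT and 102346 to 103766 in DKO, most of it from Dnmt3b and Pou5f1. Singly they differed, since Fgf5 (3235 ± 12.6 in WT, 798 ± 23.0 in DKO) and Pou3f1 were called lower, Sox2 was called higher, and Otx2, Dnmt3b and Pou5f1 were not called. The summed level of 4 naive ESC markers was 2484 to 2618 in WT and 3755 to 3831 in DKO, that of 4 trophoblast markers 46.7 to 70.4 and 202 to 243, that of 4 extra-embryonic endoderm markers 40.8 to 59.7 and 70.4 to 87.1, and that of 4 fibroblast markers 237 to 265 and 137 to 175. Only Postn was at or under the floor in every library. Elf5 had 4, 0 and 0 reads in WT and 0, 0 and 6 in DKO, so its group means were also under the floor. The naive, trophoblast and endoderm sums were higher in DKO, as were the members, but the markers were not uniform. Zfp42, Klf4 and Tbx3 of the naive list, Cdx2, Gata3 and Krt7 of the trophoblast list and Gata6 of the endoderm list were called higher, while Esrrb, Gata4 and Sox17 were not called and Elf5 and Sox7 were not tested. Gata3 made up most of the trophoblast difference, with means of 3.25 (WT) and 116 (DKO) normalized reads, and Sox17 had means of 16.4 (WT) and 10.9 (DKO). The part that such cells had in the results below was not tested.

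All 5 members of the miR-302 cluster rose in DKO EpiLCs, to between 2.13 and 2.28 times their WT mean. The miR-290 cluster members were 1.30 to 1.45 times as high in DKO as in WT, with adjusted p below 0.05 but under the 1.5-fold limit of a call. Entries were called when the adjusted p (limma, Benjamini-Hochberg) was below 0.05 and the fold change above 1.5, the thresholds of the study. By this rule 15.4% of the 25361 tested entries were called, and 7.41% were called higher in DKO, against 5 of the 9 members.

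Mir302a, the middle hairpin of its cluster, was read at 30.6, 31.3 and 30.9 normalized reads in the WT libraries and at 61.9, 79.3 and 70.0 in DKO. The lowest DKO library lay 30.6 normalized reads above the highest WT library. The log2 fold change was 1.15 ± 0.17 (SE, 95% interval 0.81 to 1.50, limma adjusted p = 1.23e-06).

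Mir302b, the first hairpin, gave 27.9, 29.0 and 26.7 normalized reads in WT and 59.2, 68.3 and 60.6 in DKO. Mir302c, the next in order, gave 27.4, 28.5 and 27.7 in WT and 57.0, 73.5 and 60.1 in DKO. In both hairpins every DKO library was above every WT library, and DKO replicate 2 was the highest of all. Their log2 fold changes were 1.14 ± 0.17 (limma adjusted p = 2.50e-06) and 1.15 ± 0.18 (adjusted p = 2.65e-06).

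Mir302d gave 30.6, 28.5 and 27.2 normalized reads in WT and 54.9, 71.4 and 65.8 in DKO. Its log2 fold change was 1.12 ± 0.18 (limma adjusted p = 3.91e-06). Mir367, the last hairpin and the member with the seed of the miR-25 and miR-92 family, gave 29.5, 31.3 and 28.3 in WT and 53.3, 71.4 and 64.8 in DKO. The groups did not overlap in either. For Mir367 the log2 fold change was 1.05 ± 0.18 (limma adjusted p = 9.91e-06), and the test of whether the change exceeded 1.5-fold gave an adjusted p of 0.0862, the 1 setting in which a miR-302 member lost its call. The intervals of the 5 hairpins overlapped, from 0.69 to 1.41 for Mir367 at the low end to 0.79 to 1.51 for Mir302c at the high end, so no order among them can be read from these libraries.

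**Figure D1:**
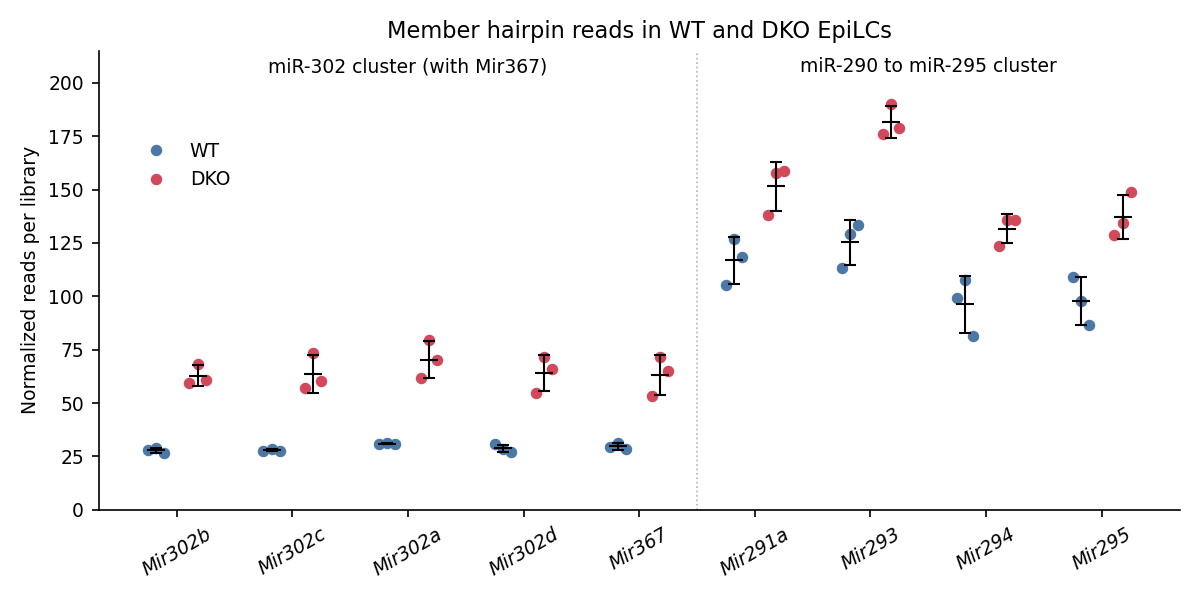
Normalized reads (y axis, linear) of the 9 members in each library, with WT in blue, DKO in red, and the group mean ± SD of 3 libraries in black. The miR-302 hairpins sit between 26.7 and 31.3 in WT and between 53.3 and 79.3 in DKO. The miR-290 members start higher, and their ratios of DKO to WT mean are smaller (1.30 to 1.45 against 2.13 to 2.28). Their distance between groups on this linear axis is not smaller.

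Mir293, whose 3p seed differs from those of its neighbours, had the highest mean of the listed members, with 113, 129 and 133 normalized reads in WT and 176, 190 and 179 in DKO. The groups were 42.6 normalized reads apart at their nearest libraries. Its log2 fold change was 0.54 ± 0.10 (95% interval 0.33 to 0.74, limma adjusted p = 4.63e-05), just under the 1.5-fold limit.

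Mir291a, the first listed hairpin of the cluster, gave 105, 127 and 118 normalized reads in WT and 138, 158 and 159 in DKO. Mir294 gave 99.4, 108 and 81.6 in WT and 124, 136 and 136 in DKO, and Mir295, the last hairpin, 109, 97.9 and 86.4 in WT and 129, 134 and 149 in DKO. These 3 hairpins carry the AAGUGCU seed, and in each the lowest DKO library was above the highest WT library, by 11.4, 16.2 and 19.6 normalized reads. Their log2 fold changes were 0.37 ± 0.11 for Mir291a (limma adjusted p = 0.00451), 0.46 ± 0.12 for Mir294 (adjusted p = 0.00184) and 0.49 ± 0.12 for Mir295 (adjusted p = 7.57e-04). The upper 95% limits, 0.59 to 0.74 over the 4 listed members, all passed the log2 value of a 1.5-fold change, so a change of that size was not excluded by these intervals.

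Read against the whole table, non-overlap and small adjusted p values were common. All DKO libraries lay above all WT libraries in 30.7% of tested entries, against 9 of 9 members. Without a fold threshold, 28.2% of tested entries had an adjusted p below 0.05 in the direction of higher DKO, again against 9 of 9 members.

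The hairpins of the miR-290 cluster outside the list had values like those of the listed ones. Mir290a, the first hairpin, gave 117, 112 and 91.2 normalized reads in WT and 124, 150 and 152 in DKO (log2 fold change 0.41 ± 0.12, limma adjusted p = 0.00435). Mir292 gave 104, 106 and 101 in WT and 131, 162 and 158 in DKO (0.52 ± 0.11, adjusted p = 2.10e-04). Mir291b was the most read hairpin of either cluster, with 188, 167 and 165 in WT and 233, 247 and 245 in DKO (0.48 ± 0.09, adjusted p = 2.83e-05). None of the 3 was called, and in each the groups did not overlap.

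A pair of annotated hairpins on the opposite strand showed what the counting did with strand. Mir290b lies inside Mir290a on the minus strand and had 0, 1 and 1 reads in WT and 0, 0 and 0 in DKO, where Mir290a had 171 to 293 reads. Mir292b lies inside Mir292 on the minus strand and had 0 reads in 5 libraries and 1 in DKO replicate 3. Both were at or under the floor of 3 reads in every library, so reads of the plus strand hairpins were not counted for the minus strand ones, and no fold is given for these.

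Summed over its 5 members, the miR-302 cluster gave 146, 149 and 141 normalized reads in WT (145 ± 3.95) and 286, 364 and 321 in DKO (324 ± 38.9), a ratio of 2.23. The sum of the 4 listed miR-290 members was 427, 462 and 420 in WT (436 ± 22.3) and 567, 618 and 622 in DKO (602 ± 30.8), a ratio of 1.38. Because fragments can be counted in several hairpins, these sums are a level and not a count of fragments. Set against each other within a library, the miR-302 sum was 33.3% ± 1.04 of the miR-290 sum in WT and 53.7% ± 4.56 in DKO. This percentage was 32.2 to 34.2 in the WT libraries and 50.5 to 58.9 in the DKO libraries, so it did not overlap between groups. An exact two-sided permutation test of its difference gave p = 0.1, the smallest that 3 against 3 libraries allow.

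Levels of different entries were compared per kilobase of annotated length. The miR-302 hairpins had group means of 377 to 449 normalized reads per kilobase in WT and 842 to 1020 in DKO, and the listed miR-290 hairpins 1145 to 1566 and 1568 to 2271. In both groups the lowest listed miR-290 member was above the highest miR-302 member, by more than the SDs over libraries. Among the miR-302 hairpins the WT order from low to high was Mir302b, Mir367, Mir302c, Mir302d and Mir302a, and neighbours such as Mir302b at 377 ± 15.9 and Mir367 at 396 ± 20.3 overlapped within their SDs. Among the listed miR-290 hairpins Mir294 was lowest at 1145 ± 158 and Mir293 highest at 1566 ± 132 in WT, with Mir295 at 1417 ± 164 and Mir291a at 1425 ± 133 not distinct from each other. A hairpin shorter than a sequenced fragment takes reads that extend past its ends, so these values per kilobase are high relative to those of long genes.

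**Figure D2:**
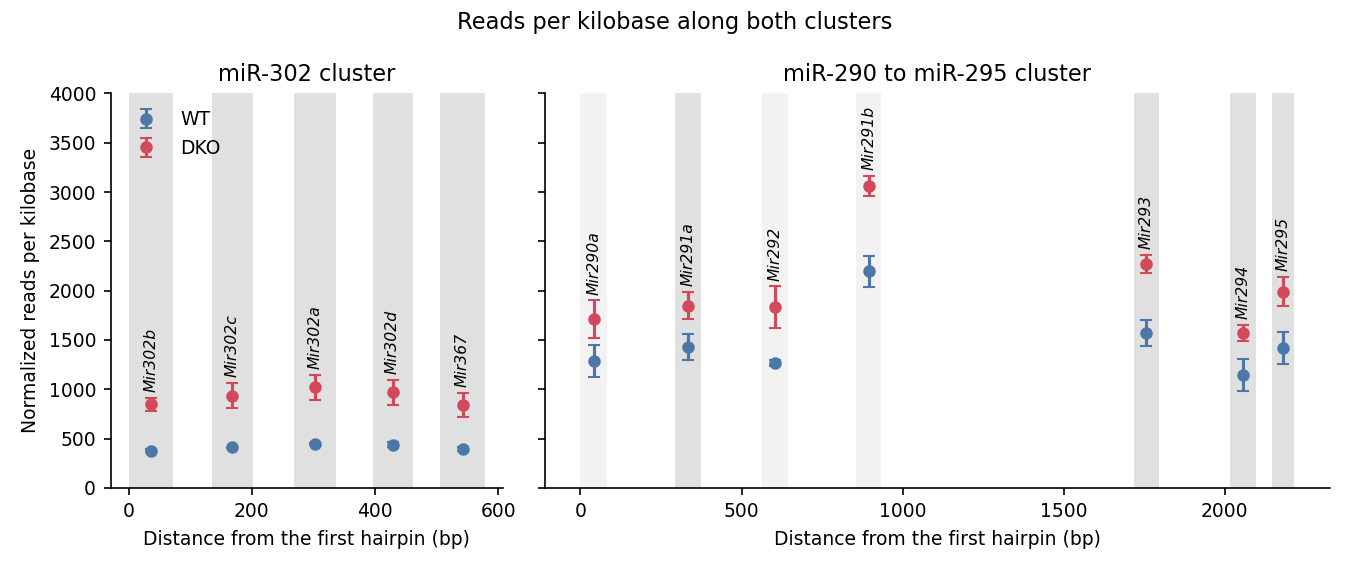
Normalized reads per kilobase (y axis, mean ± SD, n = 3) of each plus strand hairpin against its distance in bp from the first hairpin of its cluster, WT in blue and DKO in red, with dark bands for listed members and light bands for other hairpins. The level is about even along miR-302, with WT means of 377 to 449, and peaks at Mir291b in the miR-290 cluster, at 2195 in WT and 3062 in DKO.

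The genes around the clusters showed which other transcripts there differed. D7Ertd143e, the noncoding RNA that holds the listed miR-290 hairpins, had 2141 ± 53.3 normalized reads in WT and 3033 ± 150 in DKO. Its log2 fold change was 0.50 ± 0.04 (95% interval 0.43 to 0.57, limma adjusted p = 1.38e-12). That value lay between those of Mir291a and Mir293 and, with its narrower interval, also under the 1.5-fold limit. Mir293 made up 5.86% ± 0.623 of the level of D7Ertd143e in WT and 6.00% ± 0.316 in DKO. The difference of 0.136 percentage points was smaller than the spread between libraries (exact two-sided permutation test, p = 0.8).

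Larp7, which lies opposite the miR-302 hairpins, had 4252 ± 92.9 normalized reads in WT and 4716 ± 72.6 in DKO. Its log2 fold change was 0.15 ± 0.03 (limma adjusted p = 5.63e-05). Its interval of 0.09 to 0.21 lay below those of all 5 hairpins, the lowest of which began at 0.69. The mean miR-302 hairpin was 0.683% ± 0.0202 of the level of Larp7 in WT and 1.37% ± 0.145 in DKO, with no overlap between groups (exact two-sided permutation test, p = 0.1, the smallest possible).

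The nearest other genes were Ank2, an ankyrin gene 44880 bp to the low side of the miR-302 cluster (log2 fold change 0.41 ± 0.05), and Zgrf1, a zinc finger gene 7588 bp to the high side (0.27 ± 0.03), and neither was called. Beside the miR-290 cluster, AU018091, 49422 bp to the low side, went from 1985 ± 102 to 3021 ± 82.5 normalized reads and was called higher (0.61 ± 0.04, limma adjusted p = 3.09e-14), close to the 1.5-fold limit. Without WT replicate 1 or DKO replicate 3 its log2 fold change was 0.58 in either case, and the call was lost. Myadm, 68196 bp to the high side, was not called (-0.09 ± 0.04, adjusted p = 0.0759). Nlrp12, on the strand opposite the miR-290 hairpins, gave 75.2, 67.2 and 67.2 normalized reads in WT and 58.7, 69.9 and 111 in DKO, with overlap between groups (limma adjusted p = 0.499).

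**Figure D3:**
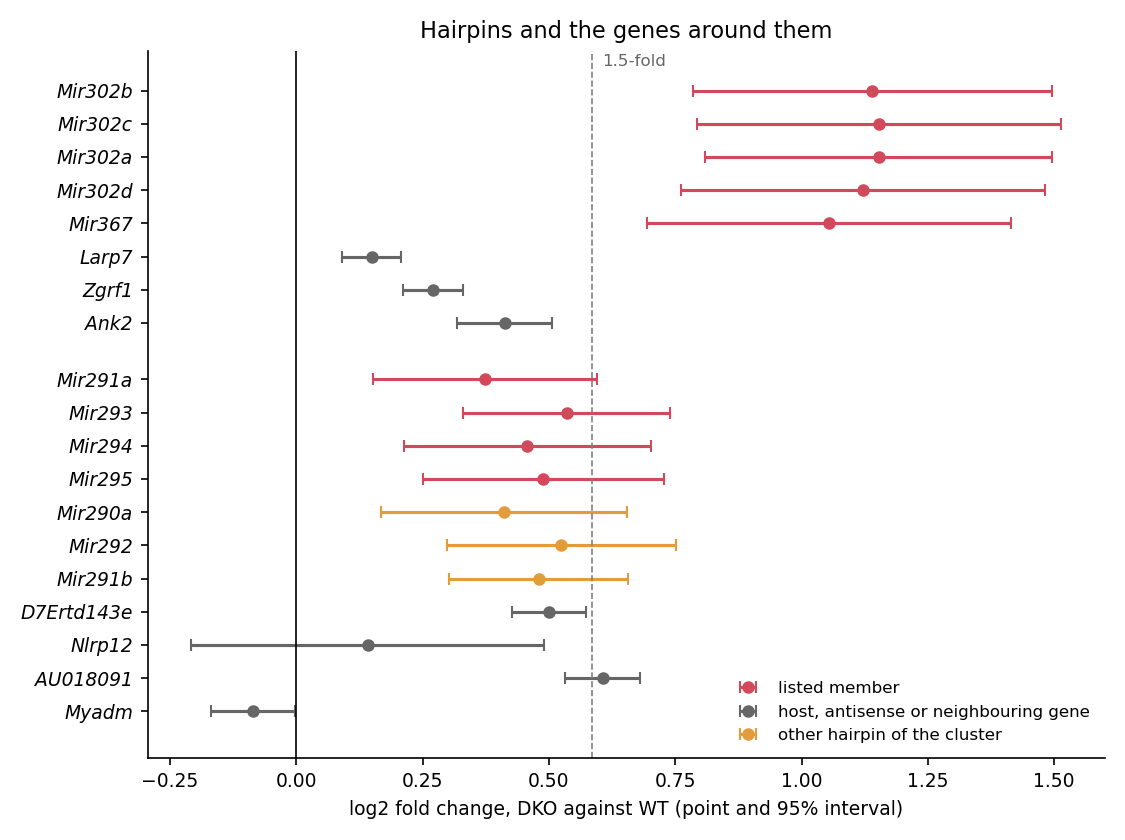
Log2 fold change of DKO against WT (x axis, point and 95% interval from limma) for the listed members, other hairpins of the miR-290 cluster and the genes around both clusters, with a dashed line at 1.5-fold. The intervals of all 5 miR-302 hairpins lie to the right of the dashed line and of Larp7, and the miR-290 hairpins gather around the 0.50 of D7Ertd143e.

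Among all microRNA entries, 191 of 1181 had no read, and 569 passed the filter on low values. Of these, 61 were called higher in DKO (10.7%) and 12 lower, and the median log2 fold change was 0.08. Hairpins of other clusters can share a transcript too, so 10.7% is not a rate over independent microRNA genes. By log2 fold change the miR-302 members took ranks 7 to 11 of the 569 and the listed miR-290 members ranks 81 to 117. By total reads, the listed miR-290 members ranked 89 to 125 of the 1181 and the miR-302 members 224 to 250. These ranks are not per kilobase, and the 1181 include longer transcripts such as Mir17hg (2339 bp), so they do not order microRNA genes by level.

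**Figure D4:**
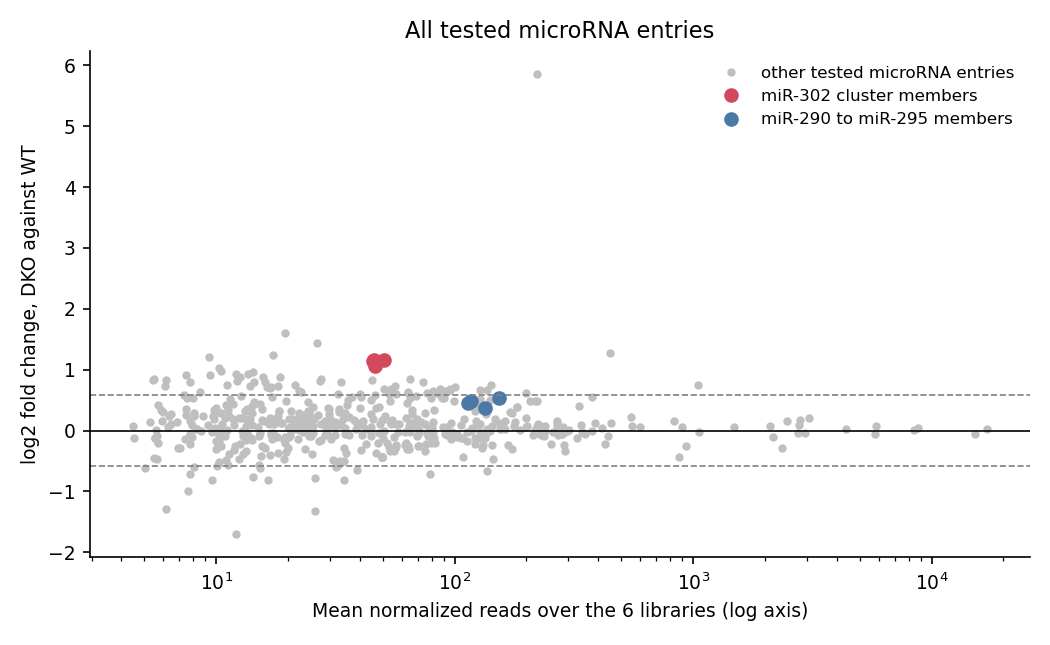
Log2 fold change of DKO against WT (y axis) against the mean of normalized reads over 6 libraries (x axis, log) for the 569 tested microRNA entries, with miR-302 members in red, listed miR-290 members in blue and dashed lines at 1.5-fold in either direction. The red points stand together above the line at 1.05 to 1.15, and the blue points lie just under it at 0.37 to 0.54.

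Sequence around an annotated transcript start is shown for both clusters because the members of each moved together. For miR-302 the window is that of Gm51018, the RefSeq noncoding RNA over the cluster, and for miR-290 that of D7Ertd143e, each from 250 bases before the annotated start to 50 after it. Capitals mark matches to CAGAC (Smad box), ACAAAG (Sox core) and CACGTG (E-box), on either strand.
Gm51018, plus strand, chr3:127544839-127545138: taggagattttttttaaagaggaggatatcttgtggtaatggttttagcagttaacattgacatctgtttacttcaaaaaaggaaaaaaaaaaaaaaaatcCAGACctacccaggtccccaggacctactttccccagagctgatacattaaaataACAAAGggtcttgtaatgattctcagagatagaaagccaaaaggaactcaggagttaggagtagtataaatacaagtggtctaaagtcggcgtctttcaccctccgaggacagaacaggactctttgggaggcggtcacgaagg
D7Ertd143e, plus strand, chr7:3218534-3218833: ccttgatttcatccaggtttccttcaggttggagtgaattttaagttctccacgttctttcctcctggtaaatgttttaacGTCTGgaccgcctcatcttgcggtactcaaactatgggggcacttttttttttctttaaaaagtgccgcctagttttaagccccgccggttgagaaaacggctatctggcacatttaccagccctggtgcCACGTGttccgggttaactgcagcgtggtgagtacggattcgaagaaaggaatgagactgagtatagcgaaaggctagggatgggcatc

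Each window held 1 match to CAGAC or its complement GTCTG, as did 49.6% of 32851 promoter windows of the same length. The Gm51018 window held 1 ACAAAG (18.7% of windows, complement CTTTGT included), and the D7Ertd143e window held 1 CACGTG (7.15%). Neither held the octamer ATGCAAAT on either strand (1.74%). The annotated start of D7Ertd143e lies downstream of the Mir290a hairpin, which is therefore inside its window. A transcript that carries Mir290a starts before that hairpin. This window may therefore not be the promoter of the miR-290 cluster, and its CACGTG lies downstream of Mir290a.

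Regulators described as bound at these clusters were split in direction. Of 8, 2 were called higher and 2 lower, against 1250 and 1369 of the 17038 genes tested. The median log2 fold change of the 8 was 0.01, beside 0.00 over all genes tested. Sox2, a core pluripotency factor, went from 2798 ± 46.0 normalized reads to 7741 ± 110 (log2 fold change 1.47 ± 0.03, limma adjusted p = 1.30e-25), and Sall4, a zinc finger factor of ESCs, was also higher (0.67 ± 0.02). Tcf7l1, a repressor in the Wnt pathway, and Myc were lower (-0.76 ± 0.04 and -0.59 ± 0.05). Myc lost its call without WT replicate 1, DKO replicate 1 or DKO replicate 3, at -0.54, -0.58 and -0.58. With a pseudocount of 10, or tested against a fold change of 1.5, 3 of the 8 regulators were called. Pou5f1, the partner of Sox2, was not called, at 21846 ± 496 and 20761 ± 344.

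Of 23 genes of microRNA processing, 1 was called, against 15.4% of all tested entries, and the list median was -0.00. The called gene was Ago1, 1 of the 4 Argonautes, which went from 4549 ± 112 to 2309 ± 43.5 normalized reads (log2 fold change -0.98 ± 0.03, limma adjusted p = 1.21e-20). Dgcr8, the partner of Drosha, had a log2 fold change of 0.11 ± 0.03, and Dicer1 went from 4332 ± 91.3 to 4530 ± 114 normalized reads. Neither was called. Without a fold threshold, 10 of the 23 had an adjusted p below 0.05, 5 higher and 5 lower, against 9133 of 17038 genes. Among the 10 were Lin28a (0.43 ± 0.02, limma adjusted p = 1.09e-15) and Lin28b (-0.34 ± 0.03, adjusted p = 7.61e-11).

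Messengers that carry the complement of the shared seed are where a change in these microRNAs could be read, and a list of 19 genes described as targets was examined. Of 18 tested, 2 were called higher and 3 lower, with a median log2 fold change of 0.05. Over all tested genes, 1250 were called higher and 1369 lower of 17038. The 7 letters that pair with AAGUGCU are AGCACTT in DNA, and 16 of the 18 tested genes held them in the annotated 3′ end (88.9%), against 16.6% of the 14858 tested genes with an annotated 3′ end. The list was made of genes described as targets of this seed. A high share was therefore built into the choice and is not a result of these data. Sites of the called genes that have one, and of the cell cycle inhibitor Cdkn1a, are shown with AGCACTT in capitals and up to 11 bases on each side.
Lats2, minus strand, chr14:57691076-57691104: agtatggaaagAGCACTTattttgtggat
Lats2, minus strand, chr14:57690977-57691005: ttgtatctgatAGCACTTgtccacagcta
Rbl2, plus strand, chr8:91123819-91123844: tttttcaataaAGCACTTataaatta
Cdkn1a, plus strand, chr17:29099817-29099845: cagacctgaatAGCACTTtggaaaaatga
Cdkn1a, plus strand, chr17:29100489-29100517: gtgggtgtcaaAGCACTTagtgggtctga
Lefty1, plus strand, chr1:180938202-180938230: actgtatgcgaAGCACTTacatgtataga
Lefty2, plus strand, chr1:180897906-180897934: cacccagtttaAGCACTTacatgggtaaa

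Lats2, a kinase of the Hippo pathway with 2 sites, went from 526 ± 21.3 to 861 ± 30.1 normalized reads (log2 fold change 0.71 ± 0.05, limma adjusted p = 2.01e-12). Rbl2, a pocket protein that restrains the cell cycle, went from 362 ± 10.3 to 581 ± 19.1 (0.68 ± 0.06, adjusted p = 8.02e-11). Both were higher in DKO, as were the primary transcripts, and a link between them was not tested. Without a fold threshold, 12 of the 18 tested targets had an adjusted p (limma) below 0.05, 6 higher and 6 lower, against 9133 of 17038 genes. The called genes that were lower were Lefty1 (-7.22 ± 0.05) and Lefty2 (-7.21 ± 0.09), antagonists of Nodal known as its direct targets, and Slain1 (-1.15 ± 0.05), a microtubule regulator with no such site. Cdkn1a was not called, at 514 ± 38.1 and 584 ± 27.1. Over all tested genes the median log2 fold change was 0.01 in 2468 genes with a site and -0.00 in 12390 without. Called higher were 5.92% of genes with a site and 7.39% of those without. Called lower were 8.02% and 8.23%, about the same share. These shares were not tested against each other. Genes with a site had longer 3′ ends, with a median of 2536.5 bases against 918.

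Where 15.4% of all tested entries were called, the relatives by seed gave no call. They were 18 entries, namely Mir32, which has the seed of miR-367, and the hairpins and hosts of the miR-17, miR-106b and miR-106a clusters, some of whose hairpins carry that seed or one close to AAGUGCU. Of these, 16 passed the filter, with a median log2 fold change of 0.08. Mir17hg, the host transcript of the miR-17 cluster, had 2338 ± 16.6 normalized reads in WT and 2593 ± 75.8 in DKO. Mcm7, which hosts Mir25, Mir93 and Mir106b, had 17122 ± 433 and 18620 ± 156. Mir25, with the seed of miR-367, stood at 261 ± 15.0 and 276 ± 20.1, with overlap between groups. Of 12 let-7 family entries, whose mature forms are known to oppose the pluripotent state, 6 passed the filter. Of these 6, 1 was called, against 15.4% of all tested entries. The called entry was Mirlet7f-1, at 12.0 ± 2.10 and 20.6 ± 4.73 (log2 fold change 0.71 ± 0.28, limma adjusted p = 0.0331). It lost that call without WT replicate 1, DKO replicate 1 or DKO replicate 3, at 0.58, 0.59 and 0.65. The call was also lost in DESeq2, with a pseudocount of 10 and in the test against a fold change of 1.5.

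**Figure D5:**
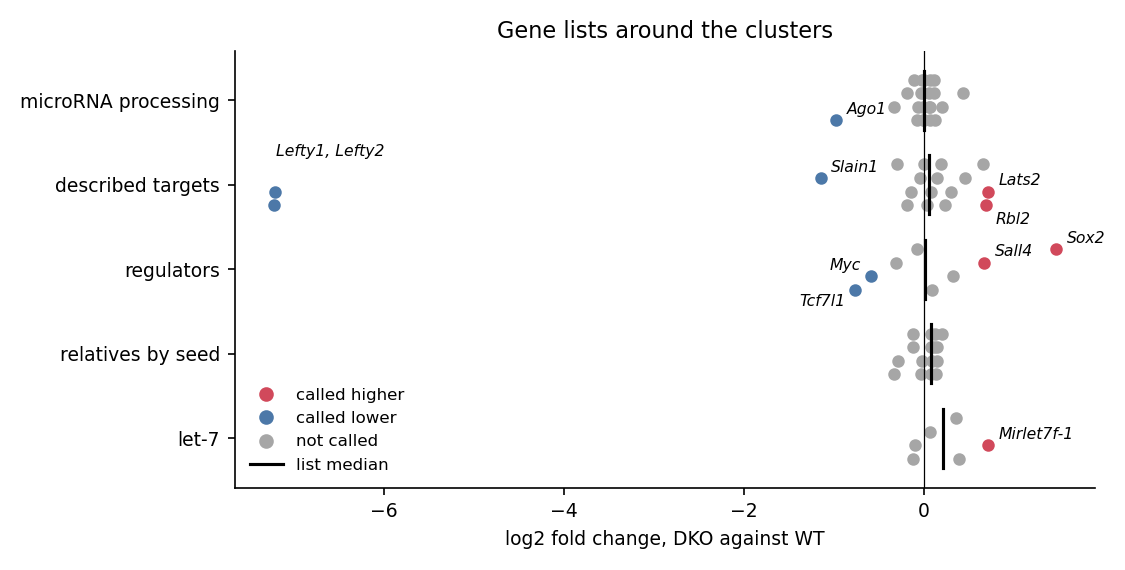
Log2 fold change of DKO against WT (x axis) for the tested genes of 5 lists (rows), with called genes in red where higher and blue where lower, other genes in grey, spread vertically only for visibility, and the list median as a black bar. The medians lie between -0.00 and 0.21, and Lefty1 and Lefty2 stand far to the left at about -7.2.

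When 13071 genes averaging 100 reads or more were compared, those most like Mir302a over the 6 libraries were Nek9, Tm9sf4 and Fermt2, with Pearson correlations of log2(value + 1) of 0.999, 0.999 and 0.998. Those most like Mir293 were Syk, Fam122b and Heatr5a, at 0.998, 0.998 and 0.997. The 6 points fall into the 2 genotypes and share the size factors, so these values describe a step between groups in the same direction. They do not describe its size and are given without a test. Log2 fold changes were 0.25, 0.25 and 0.34 for Nek9, Tm9sf4 and Fermt2, beside 1.15 for Mir302a. For Syk, Fam122b and Heatr5a they were 0.28, 0.37 and 0.21, beside 0.54 for Mir293.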

How the data were processed

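Total RNA of the 6 EpiLC samples (800 ng each) was depleted of rRNA and sequenced paired-end over 75 cycles from stranded libraries, per the labels. Per the study's methods, the authors removed rRNA reads with Bowtie2, aligned the rest to mm10 with STAR, removed duplicates with SAMtools and counted reads over refGene gene bodies. Versions and the strand setting of counting are not given in the sources used here. The values the authors deposited are a signal, reads of an entry divided by 1 size factor per library, and a second deposited table holds the authors' DESeq2 comparison, which was not used. Reads were recovered by dividing by the value of 1 read, and 100% of values came out whole within 0.02 reads. Of 33812 rows, 138 without a symbol (0.517% of reads) were left out.

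Values were fitted as log2(value + 1) in limma 3.58.1 (R 4.3.3) with a variance trend along the mean. Entries had to pass filterByExpr of edgeR 4.0.16 on recovered reads, with Benjamini-Hochberg adjustment over all 25361 tested entries. Fold changes on this scale understate those of entries with few reads. Count tests of edgeR and DESeq2 1.42.0 on recovered reads, other pseudocounts, filters, scalings and thresholds, a replicate block and leaving out each library were the alternatives. Replicate pairs differed by 3.30 to 5.35 times the sampling variance, so none was counted as a copy of another. Reads are not independent molecules, and the floor of 3 reads covers counting error only.

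The members and lists were chosen with earlier results of these data known, and the search for seed matches in 3′ ends, the motif counts and the permutation tests of ratios were added after the data were seen. Named were every member, the other hairpins of both clusters, overlapping and nearest genes, Smad2 and Smad3, up to 4 called genes per list with the largest change, the genes each list is best known for (Dgcr8, Dicer1, Cdkn1a, Lats2, Pou5f1, Sox2, Mir17hg, Mcm7), and the 3 genes most correlated with the most read member of each cluster. Mir25 was named in addition after its values were seen, for its seed, and so were Lin28a and Lin28b, for their size of change. 3′ ends and strands came from GENCODE vM21 of the same assembly.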

Additional observations from a re-analysis of the deposited data

How the results depend on the processing

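Reads over a hairpin were few, 50 to 58 per WT library for miR-302 members and 153 to 250 for the listed miR-290 members, which sets the width of their intervals. Over 18 other settings the log2 fold changes of the miR-302 members ranged from 0.87 to 1.24 and those of the listed miR-290 members from 0.30 to 0.58, all in the same direction. With no fold threshold, 9 members and 13977 entries were called, as were 10 genes of microRNA processing, 12 described targets, 8 regulators, 2 relatives by seed and 105 microRNA entries higher in DKO. Tested against a fold change of 1.5, 1735 entries, 3 described targets, 0 let-7 entries and 9 microRNA entries were called, against 3904, 5, 1 and 61 by the rule used here. These shifts follow from the thresholds themselves. A pseudocount of 10 left 28 microRNA entries and 0 let-7 entries called, DESeq2 left 0 let-7 entries, and no filter gave 1 relative by seed, and the cause was not tested. Leaving out each library in turn gave 5 called members throughout, 0 to 1 let-7 entries and 35 to 63 microRNA entries, the lowest without DKO replicate 3. The ratio of summed reads ranged from 2.09 to 2.36 for miR-302 and from 1.36 to 1.42 for the listed miR-290 members without 1 library, and TMM factors, library size alone or all annotated hairpins moved it by less than the SD.

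Libraries with the same replicate number showed no shared deviation, with correlations between WT and DKO of -0.00787, -0.0252 and 0.00475 over 13071 genes. They were therefore not treated as pairs, though these values do not tell whether such differentiations were run together. With a replicate block 3913 entries and 5 members were called, with 1, 5, 4, 0 and 1 calls in the lists of processing, targets, regulators, relatives and let-7 and 59 microRNA entries, and the block changed the call of 0 named genes.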
